A study of Mus musculus with 6 samples.

Results

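Mitochondrial ribosomal protein genes were examined in peritoneal macrophages of old and young mice. The members are the protein-coding genes whose mouse symbol begins with Mrpl or Mrps followed by a number, names that stand for mitochondrial ribosomal protein of the large and of the small subunit. The mouse annotation lists 78 such genes. Of these, 77 had values among the 19973 genes of the deposited table, 48 with Mrpl names and 29 with Mrps names, and Mrpl53 was not analysed here. All 77 had a mean normalized count above the minimum of 10 used for testing. They were chosen by symbol alone, without regard to their values.

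The old group consisted of 3 libraries from male C57BL/6 mice of 18 months, and the young group of 3 libraries from male C57BL/6 mice of 2 months. Both groups had received 200 µg of zymosan A, which consists of yeast cell walls and provokes a self-resolving inflammation, by injection into the peritoneal cavity. Peritoneal cells were washed out 72 hours later, grown overnight in medium with L-cell supernatant (a source of macrophage growth factor), freed of unattached cells and held for 6 hours in the vehicle, phosphate-buffered saline. The design text mentions 3 mice per group and triplicate sequencing without tying a library to either, so the p-values reflect how far the libraries spread, part of which may be technical.

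Mitochondria keep a ribosome of their own, descended from that of their bacterial ancestor. It translates the few messages of the mitochondrial genome, which encode core membrane subunits of the respiratory chain and the ATP synthase. Its ribosomal RNAs are made in the organelle, whereas all of its proteins are encoded in the nucleus, made in the cytosol and imported, so that the Mrp genes must be expressed together with a genome outside the nucleus. Many of the proteins have bacterial counterparts, and many others were gained with the mitochondrion. In macrophages, respiratory capacity is known to differ between inflammatory and resolving states.

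The promoters of 3 of the members described first below are shown because these members passed the test for an age difference. Each runs from 130 bases before to 30 bases after the RefSeq transcription start on GRCm38.p6, on the plus strand, at chr17:45686219-45686378 for Mrpl14, chr1:79775888-79776047 for Mrpl44 and chr11:59202356-59202515 for Mrpl55. Capitals mark matches to the letters GCGCA, any base, then GCGC, the core of the site known for the transcription factor NRF1, and to the GC box GGGGCGGGG.
Mrpl14: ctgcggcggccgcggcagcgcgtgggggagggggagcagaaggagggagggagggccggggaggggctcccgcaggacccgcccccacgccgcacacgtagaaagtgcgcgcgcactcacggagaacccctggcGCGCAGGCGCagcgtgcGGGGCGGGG
Mrpl44: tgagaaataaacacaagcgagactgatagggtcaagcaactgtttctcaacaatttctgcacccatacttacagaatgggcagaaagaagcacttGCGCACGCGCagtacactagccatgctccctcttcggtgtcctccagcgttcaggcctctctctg
Mrpl55: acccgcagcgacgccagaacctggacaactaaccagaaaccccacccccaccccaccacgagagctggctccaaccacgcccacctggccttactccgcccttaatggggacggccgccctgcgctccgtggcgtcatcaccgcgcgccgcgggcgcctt
Mrpl14 and Mrpl44 each hold the NRF1-type letters, and Mrpl55 holds none of the motifs searched in the stretch shown.

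Old libraries held 8163016 to 13007604 reads and young libraries 9795602 to 12482266. The first principal component carried 71.5% of the variance and separated the ages, and the second, with 18.2%, placed old replicate 3 and young replicate 3 apart from the rest. Old replicate 3 also had 1.34% of its reads on nuclear ribosomal RNA genes, against 0.0177% to 0.154% in the other 5 libraries, so results that rest on it are also given without it. Macrophage identity genes were abundant at both ages (Csf1r at 19134 to 20131 normalized counts in old and 15854 to 17445 in young), and 6 of 8 macrophage markers passed as higher in old. Of 5 markers of resident large peritoneal macrophages, 4 were tested. Cd9 was higher in old (0.60 on the log2 scale), F5 was lower (-0.85), Icam2 (0.26) did not pass, and Gata6, the defining regulator, did not pass either and was low at 9.56 to 10.3 normalized counts in old and 12.1 to 16.7 in young. Markers of other cells moved with age. All 7 B cell markers were higher in old, with summed normalized counts of 1369 to 2944 in old and 51.8 to 59.3 in young. All 5 tested mast cell markers of 7 were higher in old, with summed counts of 535 to 607 in old and 38.2 to 63.4 in young. None of the 8 T and NK cell markers reached the minimum, with summed counts of 47.0 to 68.4 in old and 3.38 to 9.05 in young, where Trac and Trbc2 were at 0. S100a8, the single neutrophil marker tested, was higher in old (1.46 on the log2 scale), with Cxcr2 at 0 to 1.27 in old and at 0 in young. Of 3 tested mesothelial and fibroblast markers, Pdgfra was higher (1.19) and Col1a1 lower (-0.66) in old. No eosinophil or dendritic cell marker reached the minimum. All 10 proliferation markers were lower in old, with summed counts of 3839 to 3983 in old and 24578 to 27534 in young. In bulk RNA, fewer cells of a type and less RNA per cell cannot be told apart, and the part of these markers in the Mrp values was not tested.

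Levels of the 77 Mrp genes differed little between old and young macrophages, although a large share of all genes did. By limma on log2(normalized count + 1), with Benjamini-Hochberg adjustment over 11795 tested genes and a threshold of 0.05, 4 members passed. Mrpl14, Mrpl44 and Mrpl55 were higher in old and Mrpl19 was lower. That is 5.19% of members, where 35.5% of all tested genes passed, 17.9% as higher and 17.6% as lower in old. Estimates were small throughout, with a median of 0.10 on the log2 scale for the members and 0.00 for all tested genes. They ran from -0.29 for Mrpl19 to 0.72 for Mrps36, the member with the lowest mean count, and 56 were above 0 and 21 below. The unadjusted limma p was under the threshold for 15 members, 10 of them with Mrpl names, and for 5345 of the 11795 tested genes.

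Errors of the members were close to those of other genes. The median standard error of a log2 fold change was 0.12 for members and 0.11 for all tested genes. The 95% confidence interval lay wholly within a 1.5-fold change in either direction for 66 of 77 members (85.7%), and for 51.8% of all tested genes. The other 11 members were Mrpl14, Mrpl27, Mrpl32, Mrpl41, Mrpl44, Mrpl55, Mrps6, Mrps16, Mrps24, Mrps33 and Mrps36, and for all of these it was the upper bound that passed 1.5-fold. In 5 members every old library was above every young one (6.49% against 24.0% of all tested genes), and in 5 every old library was below every young one (6.49% against 23.6%). The higher 5 were Mrpl1, Mrpl14, Mrpl24, Mrpl55 and Mrps25, and the lower 5 were Mrpl19, Mrpl33, Mrpl37, Mrps10 and Mrps15. Old replicate 3 and young replicate 3, the libraries that stood apart, narrowed many of these differences, as described further on.

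**Figure D1:**
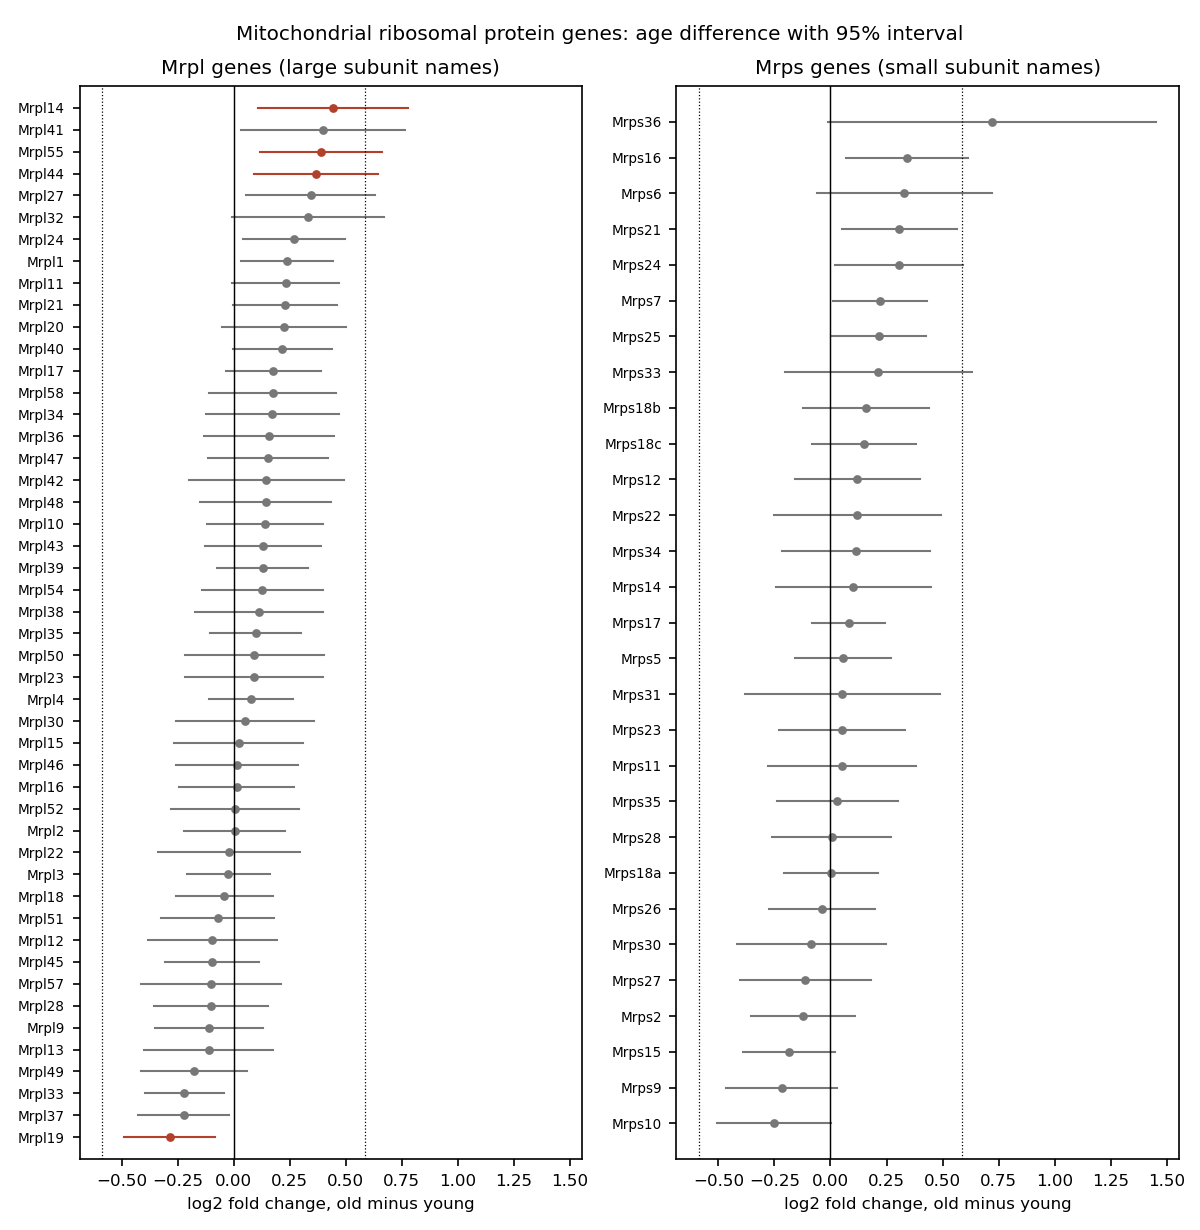
Log2 fold change (old minus young, x axis) of each Mrpl gene (left) and Mrps gene (right), with the limma estimate as a point and its 95% confidence interval as a bar, for 3 old and 3 young libraries. Red marks the 4 genes with an adjusted p under 0.05, the dotted lines mark a 1.5-fold change, and most intervals cross 0 and stay between the dotted lines.

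Among proteins of the large subunit, which joins amino acids, Mrpl14 is the counterpart of a conserved bacterial protein at the face that meets the small subunit. The gene (ENSMUSG00000023939) spans chr17:45686322-45698495 on the plus strand of mm10. It had 141.0, 147.0 and 115.6 normalized counts in old replicates 1, 2 and 3, against 84.5, 112.3 and 99.7 in young replicates 1, 2 and 3. Every old library exceeded every young one, by the narrowest margin between old replicate 3 and young replicate 2. The means were 134.5 ± 16.7 in old and 98.8 ± 13.9 in young (SD, n = 3 each), a ratio of 1.36. The log2 fold change was 0.44 with a standard error of 0.15 (limma adjusted p = 0.043).

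Mrpl44 (ENSMUSG00000026248, chr1:79776018-79781445, plus strand) encodes a mitochondria-specific protein of the large subunit with a ribonuclease III-like fold. It had 286.8, 318.8 and 261.6 normalized counts in old replicates 1, 2 and 3, against 211.2, 200.9 and 262.0 in young replicates 1, 2 and 3. Old replicate 3 and young replicate 3 were at nearly the same level, so the groups touched there, and the other old libraries were above all young ones. The means were 289.1 ± 28.7 in old and 224.7 ± 32.7 in young (SD, n = 3 each). The log2 fold change was 0.37 with a standard error of 0.12 (limma adjusted p = 0.043).

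Mrpl55 (ENSMUSG00000036860, chr11:59202486-59206134, plus strand), another mitochondria-specific protein of the large subunit, had 192.4, 211.1 and 182.9 normalized counts in old replicates 1, 2 and 3. The young replicates 1, 2 and 3 had 130.8, 148.3 and 169.8. The groups did not overlap, and young replicate 3 came nearest to the old libraries. Mrpl55 averaged 195.5 ± 14.4 in old and 149.6 ± 19.6 in young (SD, n = 3 each). The log2 difference was 0.39 with a standard error of 0.12 (limma adjusted p = 0.033).

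Mrpl19 (ENSMUSG00000030045, chr6:81957851-81965958, minus strand), which has a bacterial counterpart at the subunit interface, was the single member that passed as lower. It had 280.8, 296.6 and 256.6 normalized counts in old replicates 1, 2 and 3, against 315.9, 345.7 and 354.9 in young replicates 1, 2 and 3. All old libraries were below all young ones. The means were 278.0 ± 20.2 in old and 338.8 ± 20.4 in young (SD, n = 3 each), and the log2 fold change was -0.29 with a standard error of 0.09 (limma adjusted p = 0.035). Exons of Tmem63b, Wdfy1 and Gcfc2 overlap those of Mrpl14, Mrpl44 and Mrpl19 on the opposite strand, and since it is not given whether counting used strand, reads there cannot be assigned with certainty. Such overlaps concern 27 of the 77 members, and Mrpl55 is not among them.

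These 4 calls lie close to the threshold. Of 19 alternative settings, 11 kept each of Mrpl14, Mrpl44 and Mrpl55 past it and 9 kept Mrpl19. Over the alternatives the adjusted p ran from 0.004 to 0.149 for Mrpl14, 7.8e-05 to 0.163 for Mrpl44, 8.6e-04 to 0.147 for Mrpl55 and 0.015 to 0.122 for Mrpl19, in limma, edgeR or DESeq2. Leaving out old replicate 1, old replicate 2 or young replicate 1 ended the calls of Mrpl14, Mrpl44 and Mrpl55, leaving out young replicate 2 ended those of Mrpl44 and Mrpl55, and leaving out young replicate 3 ended that of Mrpl14. Mrpl19 lost its call without old replicate 1, old replicate 3, young replicate 2 or young replicate 3.

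**Figure D2:**
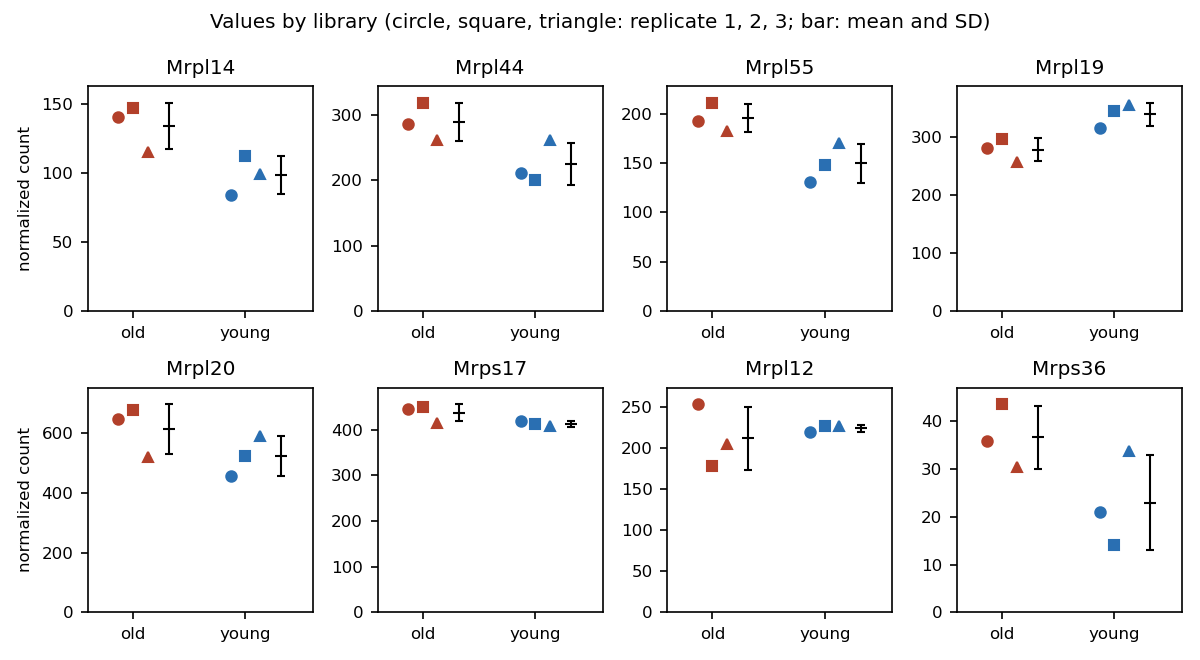
Normalized counts (y axis, from 0) of 8 Mrp genes in each library, with old in red left of young in blue. Circles, squares and triangles are replicates 1, 2 and 3, and the bar beside each group gives the mean and SD (n = 3). Old exceeds young without overlap in Mrpl14 and Mrpl55, Mrpl19 runs the other way, and in the remaining panels the groups overlap.

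The most abundant large-subunit members by mean count did not pass. Mrpl20, whose bacterial counterpart is needed early in large-subunit assembly, had 647.7, 677.0 and 520.7 normalized counts in old replicates 1, 2 and 3, against 458.7, 525.6 and 592.4 in young replicates 1, 2 and 3. Old replicate 3 lay below young replicates 2 and 3. Its log2 fold change was 0.23 with a standard error of 0.12 (limma adjusted p = 0.184). Mrpl18, a counterpart of the bacterial protein that binds 5S ribosomal RNA, had means of 481.4 ± 53.1 in old and 493.8 ± 29.7 in young (SD, n = 3 each), and its groups overlapped widely.

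A few large-subunit proteins have further known roles. Mrpl12, which in human cells also binds the mitochondrial RNA polymerase, had 253.3, 177.8 and 204.5 normalized counts in old replicates 1, 2 and 3, against 219.3, 226.4 and 226.5 in young replicates 1, 2 and 3. The old libraries scattered on both sides of the closely spaced young ones, and the 95% interval of the log2 fold change ran from -0.38 to 0.19. Mrpl45, which lies at the exit of the nascent chain and ties the ribosome to the inner membrane, averaged 421.0 ± 40.9 in old and 449.4 ± 26.2 in young (SD, n = 3 each), with an interval from -0.31 to 0.11. Mrpl58 (also Ict1), a peptidyl-tRNA hydrolase built into the large subunit, averaged 185.3 ± 26.1 in old and 163.5 ± 14.2 in young (SD, n = 3 each), with an interval from -0.11 to 0.46. None of these 3 passed.

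In the small subunit, which decodes the message, 0 of 29 Mrps genes passed in limma, 5 had an unadjusted p under 0.05, edgeR called 1 and DESeq2 called 0. Of all tested genes 35.5% passed in limma, 36.7% in edgeR and 31.7% in DESeq2, and 5345 of 11795 had an unadjusted limma p under 0.05. The Mrps gene called by edgeR was Mrps16, named here after its values were seen, a counterpart of a bacterial assembly protein. It had 256.9, 246.2 and 196.9 normalized counts in old replicates 1, 2 and 3, against 179.0, 172.0 and 197.7 in young replicates 1, 2 and 3. Old replicate 3 and young replicate 3 were at one level, and the other old libraries were above all young ones. The log2 fold change was 0.34 with a standard error of 0.12 (limma adjusted p = 0.053). The median log2 fold change was 0.08 over the Mrps genes and 0.11 over the Mrpl genes, and 22 of 29 and 34 of 48 estimates were above 0.

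The 2 most abundant small-subunit members, both counterparts of bacterial proteins that contact the ribosomal RNA directly, did not pass. Mrps17 had 444.5, 450.5 and 415.3 normalized counts in old replicates 1, 2 and 3, against 419.5, 411.5 and 407.3 in young replicates 1, 2 and 3. Its groups overlapped through old replicate 3, and the 95% interval of its log2 fold change, from -0.08 to 0.24, was among the narrow ones. Mrps7 averaged 421.0 ± 35.4 in old and 360.9 ± 25.5 in young (SD, n = 3 each), with a log2 fold change of 0.22 and a standard error of 0.09 (limma adjusted p = 0.093), and it passed in 4 alternatives, among them without old replicate 3 (0.29, limma adjusted p = 0.018).

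Some Mrps names do not say where the protein sits. Mrps18a and Mrps30 belong to the large subunit in mammalian structures, and Mrps36 (also Kgd4) is now known as a subunit of the 2-oxoglutarate dehydrogenase complex of the citric acid cycle. Counted by place, 50 members belong to the large and 26 to the small subunit, with medians of 0.10 and 0.09 on the log2 scale, and the count of calls stayed at 4 and 0. Mrps18a averaged 326.9 ± 18.3 in old and 326.7 ± 30.3 in young (SD, n = 3 each). Its paralogs Mrps18b and Mrps18c, which are small-subunit proteins, averaged 218.1 ± 24.5 and 202.1 ± 16.0 in old, against 195.5 ± 24.0 and 181.8 ± 12.5 in young (SD, n = 3 each). Mrps30 averaged 184.6 ± 33.5 in old and 194.3 ± 20.4 in young (SD, n = 3 each). None of these 4 passed, and the groups overlapped in each.

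Mrps36 had the highest estimate and the lowest mean count of all members. It had 35.9, 43.6 and 30.5 normalized counts in old replicates 1, 2 and 3, against 21.1, 14.0 and 33.8 in young replicates 1, 2 and 3, from 16 to 51 reads per library. Young replicate 3 exceeded old replicate 3. The log2 fold change was 0.72 with a 95% interval from -0.01 to 1.45 (limma adjusted p = 0.116). Its within-group standard deviation was 0.46 on the log2 scale, where counting error alone gives 0.28. It passed in 2 alternatives, without young replicate 3 (1.03, limma adjusted p = 0.032) and without both libraries numbered 3 (1.15, limma adjusted p = 0.002).

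Proteins with and without a bacterial counterpart gave like values. The 45 members with one had a median log2 fold change of 0.09, with 1 member higher and 1 lower in old. The 31 mitochondria-specific members had a median of 0.11, with 2 higher and 0 lower. No difference between the classes was tested.

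Leaving out old replicate 3 raised the number of members that passed. Without it, 18 of 77 members passed in limma (23.4%), 16 higher and 2 lower in old, where 48.2% of all tested genes passed, 23.6% as higher and 24.6% as lower. The 16 higher were 12 Mrpl genes (Mrpl1, Mrpl11, Mrpl14, Mrpl20, Mrpl21, Mrpl24, Mrpl27, Mrpl30, Mrpl40, Mrpl41, Mrpl44 and Mrpl55) and 4 Mrps genes (Mrps7, Mrps16, Mrps21 and Mrps24). The 2 lower were Mrps9 and Mrps10. The median log2 fold change was then 0.18 over the Mrpl genes and 0.17 over the Mrps genes. Of the 4 members called with all libraries, 3 also passed here, and Mrpl19 did not (-0.23, adjusted p = 0.057).

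Estimates were higher without old replicate 3 for 70 of 77 members, with a median change of 0.07 against 0.02 for all tested genes, and 67 kept their sign. Mrpl41, a mitochondria-specific large-subunit protein named here after its values were seen, shows the pattern. It had 241.4, 220.5 and 152.4 normalized counts in old replicates 1, 2 and 3, against 145.9, 158.8 and 152.1 in young replicates 1, 2 and 3. Old replicates 1 and 2 were above all young libraries and old replicate 3 was among them. Its log2 fold change was 0.40 with all libraries (limma adjusted p = 0.084) and 0.60 without old replicate 3 (limma adjusted p = 6.5e-04). Mrps9 and Mrps10, counterparts of bacterial proteins of the head of the small subunit and also named after their values were seen, went the other way. Mrps9 had 210.3, 216.3 and 255.3 normalized counts in old replicates 1, 2 and 3, against 279.6, 275.5 and 237.4 in young replicates 1, 2 and 3, with the libraries numbered 3 again nearest to the other age. Mrps10 had 144.6, 133.3 and 162.6 in old replicates 1, 2 and 3, against 170.0, 189.5 and 164.8 in young replicates 1, 2 and 3, without overlap.

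**Figure D3:**
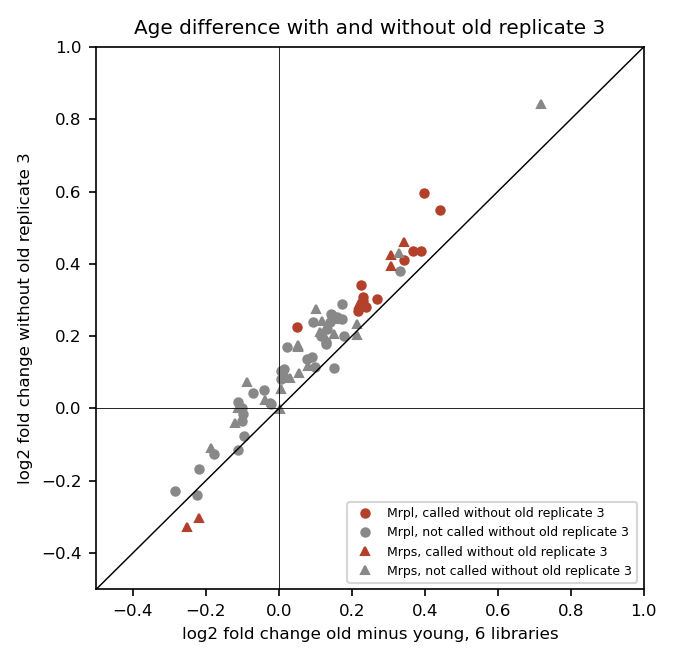
Log2 fold change (old minus young) of each Mrp gene with all 6 libraries (x axis) and without old replicate 3 (y axis), circles for Mrpl and triangles for Mrps genes. Red marks genes with an adjusted p under 0.05 without that library, and 70 of 77 points lie above the diagonal line of equal values.

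The 2 libraries numbered 3 departed from their groups in most members. Old replicate 3 was the lowest of the old libraries in 68 of 77 members (88.3%, against 48.0% of all tested genes). Young replicate 3 was the highest of the young libraries in 56 of 77 (72.7%, against 45.8%), in 40 of 48 Mrpl and 16 of 29 Mrps genes. The median deviation of the members from their mean over the 6 libraries was 0.11, 0.12 and -0.09 on the log2 scale in old replicates 1, 2 and 3, against -0.08, -0.08 and 0.07 in young replicates 1, 2 and 3. Over all tested genes it stayed between -0.01 and 0.02. With both of these libraries left out (an alternative added after seeing earlier results), 39 of 77 members passed, 37 higher and 2 lower in old, where 59.0% of all tested genes passed, 30.3% as higher and 28.7% as lower. The medians were then 0.25 for the Mrpl and 0.21 for the Mrps genes. Each age had 2 libraries in that comparison.

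The genes for the ribosome of the cytosol moved in the same libraries. Old replicate 3 was the lowest old library in 45 of 45 tested cytosolic large-subunit genes and in 32 of 32 small-subunit genes. The median deviation there was -0.22 and -0.24 for the 2 sets in old replicate 3, and 0.09 and 0.11 in young replicate 3. The summed Mrp counts were 11.0%, 10.6% and 11.9% of the summed cytosolic ribosomal protein counts in old replicates 1, 2 and 3, against 11.0%, 10.6% and 10.6% in young replicates 1, 2 and 3. Old replicate 3 was also the lowest old library in 7 of 7 B cell, 7 of 8 macrophage and 7 of 10 proliferation markers. It was the lowest in 1 of 5 mast cell markers, and in 48.0% of all tested genes. What sets these libraries apart was not tested.

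**Figure D4:**
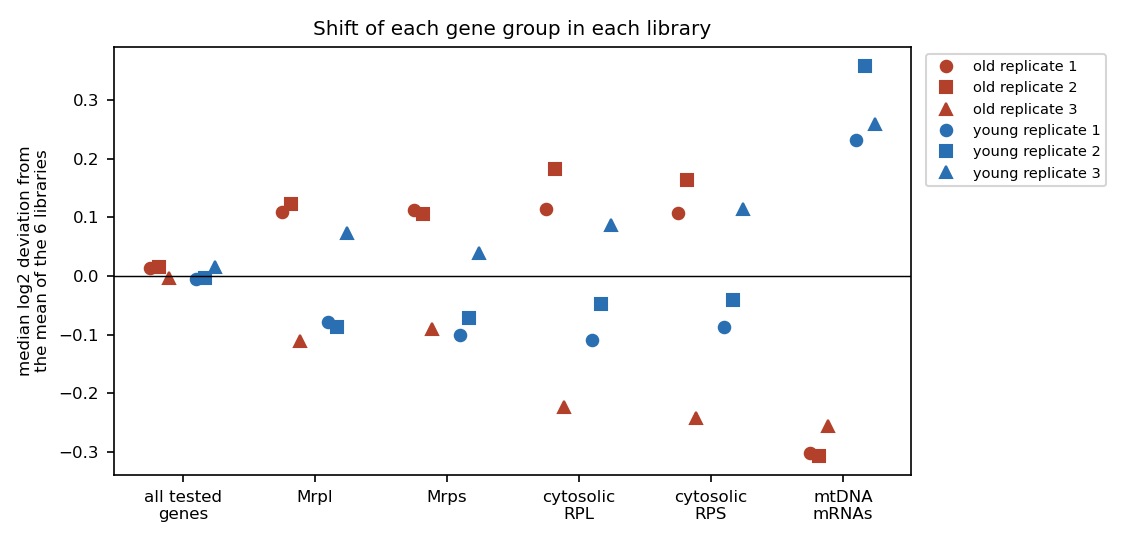
Median deviation (y axis, log2 scale) of each gene group from its mean over the 6 libraries, with old libraries in red left of young libraries in blue and replicates 1, 2 and 3 as circles, squares and triangles. Mrpl, Mrps and both cytosolic ribosomal sets place old replicate 3 below and young replicate 3 above 0, whereas messages of the mitochondrial genome separate the ages in all libraries.

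As a share of all reads the members took 0.193%, 0.192% and 0.175% in old replicates 1, 2 and 3, against 0.188%, 0.184% and 0.198% in young replicates 1, 2 and 3. The ages overlapped. Summed normalized counts were 20233 ± 1783 in old and 19329 ± 1313 in young (SD, n = 3 each), a ratio of 1.05, and 1.10 without old replicate 3. The ratio of summed large-subunit to summed small-subunit counts was 2.24, 2.26 and 2.22 in old replicates 1, 2 and 3, against 2.19, 2.21 and 2.30 in young replicates 1, 2 and 3. The old values lay within the range of the young ones.

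The members were expressed at moderate and unequal levels. The mean normalized count over the 6 libraries ran from 29.8 to 570 with a median of 238, and single libraries had 16 to 792 reads per member. Per kilobase of the principal transcript, the level ran from 35.3 in Mrps35 to 851 in Mrpl33, with a median of 168. The ratio of the extremes was 24.1, although the assembled ribosome is known to hold most of these proteins in equal number. It depends on the transcript length chosen, since Mrpl33 has 478 bases in its principal and 2741 in its longest transcript. The within-group standard deviation had a median of 0.16 on the log2 scale for members, where counting error alone gives 0.09, and 0.14 for all tested genes.

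Member transcripts were short. The principal transcript had a median of 1316 bases, against 3026 bases for all tested protein-coding genes. The longest transcript, on which the trends below were fitted, had medians of 1884 bases in members and 3328 bases in all tested genes. Its GC content had medians of 49.7% and 48.9%. When trends of each library with transcript length and GC content were removed, the median log2 fold change fell to 0.03 for the Mrpl and 0.02 for the Mrps genes. The members called were then 2 higher and 5 lower in old, where 36.1% of all tested genes passed, 18.3% as higher and 17.7% as lower. Mrpl44 and Mrpl55 lost their calls there, with log2 fold changes of 0.20 and 0.21 (limma adjusted p = 0.163 and 0.147).

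Members are scattered over 17 chromosomes, and 23 of the 77 start head to head with another protein-coding gene, their starts at most 1000 bases apart or overlapping by at most 300 in the GENCODE annotation. Of the 22 tested neighbours 8 passed (36.4%, with 35.5% of all tested genes), 4 higher and 4 lower in old, and of the 22 members beside these neighbours 1 passed, Mrpl44. The neighbours named here were chosen after their values were seen. Ncapd2, which encodes a subunit of the condensin complex of mitotic chromosomes, starts 100 bases from Mrpl51, a mitochondria-specific large-subunit protein. Ska3, which encodes a kinetochore protein, starts 49 bases from Mrpl57, also of the large subunit. The stretches between the paired starts are shown because one gene of each pair differed widely with age and the other did not. They lie between the GENCODE starts, at chr6:125191702-125191800 and chr14:57826186-57826233 on GRCm38.p6, plus strand, with the bases read from RefSeq promoter entries. RefSeq sets the starts of Mrpl51 and Ncapd2 614 bases apart and those of Mrpl57 and Ska3 76 bases apart. Capitals mark TTTGAA, the core of a promoter element of cell cycle genes, on the minus strand (TTCAAA), and the GC box, both in the first stretch.
Mrpl51 and Ncapd2: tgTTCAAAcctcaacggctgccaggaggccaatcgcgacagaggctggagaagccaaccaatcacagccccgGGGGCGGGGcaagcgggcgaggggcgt
Mrpl57 and Ska3: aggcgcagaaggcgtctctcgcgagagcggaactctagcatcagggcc
The first stretch has 99 bases and 66.7% GC, the second 48 bases and 64.6% GC. In the longer windows searched below, 300 bases around each RefSeq start, Mrpl57 holds NRF1-type, ETS-type and TTTGAA letters, and Mrpl51 holds ETS-type letters.

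Ncapd2 had 370.5, 282.9 and 295.9 normalized counts in old replicates 1, 2 and 3, against 1472, 1560 and 1565 in young replicates 1, 2 and 3. Its log2 fold change was -2.28 with a 95% interval from -2.51 to -2.05. Mrpl51 beside it had 494.7, 485.5 and 386.1 in old and 437.6, 471.2 and 521.4 in young, with overlap and an interval from -0.32 to 0.18. Ska3 averaged 58.2 ± 3.8 in old and 241.6 ± 14.4 in young (SD, n = 3 each). The log2 difference was -2.04 with an interval from -2.29 to -1.78. Mrpl57 beside it averaged 163.4 ± 13.3 in old and 176.8 ± 29.3 in young (SD, n = 3 each), with an interval from -0.41 to 0.21. In both pairs the interval of the neighbour lay entirely below that of the Mrp gene.

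The same held for Eme1, which encodes a subunit of a DNA structure-specific endonuclease and whose start overlaps that of Mrpl27 by 197 bases. Eme1 averaged 56.4 ± 8.2 in old and 193.8 ± 12.7 in young (SD, n = 3 each), and the 95% interval of its log2 fold change ran from -2.09 to -1.45. Mrpl27, the counterpart of a bacterial protein near the site of peptide bond formation, averaged 214.9 ± 16.8 in old and 170.2 ± 26.9 in young (SD, n = 3 each), and its log2 fold change was 0.34 (limma adjusted p = 0.064). Exons of this pair overlap on opposite strands, so some reads may belong to either gene. The neighbours that were higher in old were Pnpla7 beside Mrpl41 (0.69), Ndufs6 beside Mrpl36 (0.48), Klc4 beside Mrpl2 (0.34) and Ptcd2 beside Mrps27 (0.31). Ppp1r10 beside Mrps18b was lower (-0.26).

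**Figure D5:**
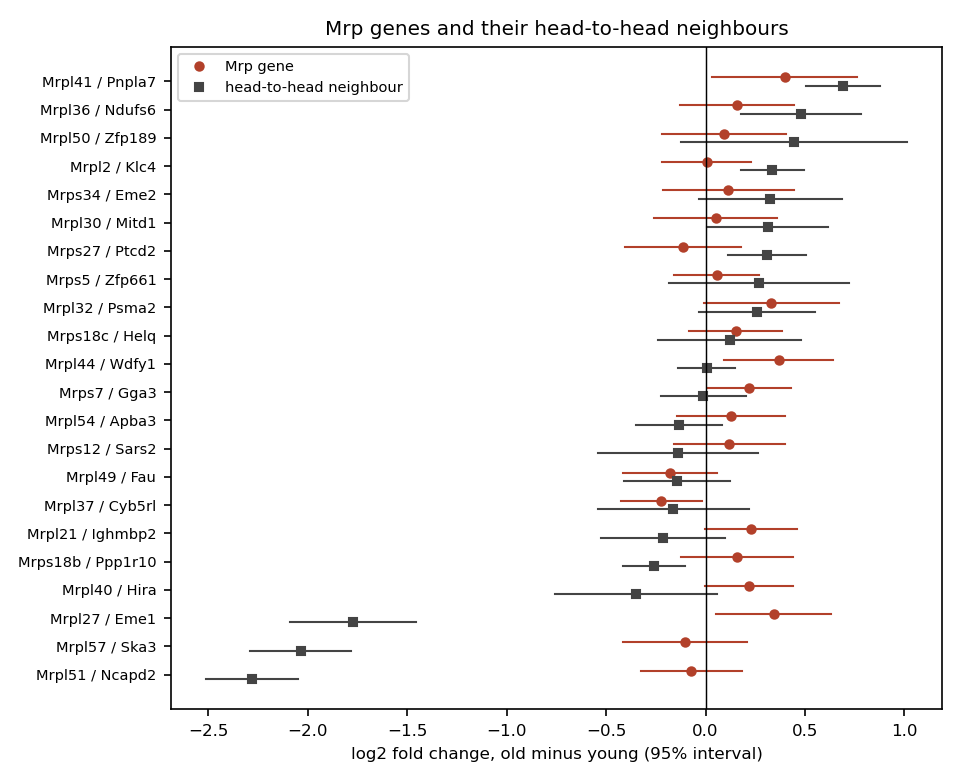
Log2 fold change (old minus young, x axis) with its 95% confidence interval for 22 Mrp genes (red circles) and the tested protein-coding gene that starts head to head with each (dark squares), one pair per line. The 3 lowest neighbours, Ncapd2, Ska3 and Eme1, lie near -2 while the Mrp genes beside them lie near 0 or above.

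RefSeq promoters of 300 bases (250 before and 50 after the start) were at hand for 68 of the member genes, 74 promoters in all. Short motifs were searched on both strands, as a description of letters and not of binding. The NRF1-type letters (GCGCA, any base, GCGC) were in 13 of the 74 (17.6%), in 10.5% of promoters of all tested genes and in 4.60% of all 32851 promoters. The ETS-type CCGGAAG, the core bound by the GABP complex, was in 25 (33.8%), in 18.8% of tested and in 8.86% of all promoters. The YY1-type AAGATGGC was in 12 (16.2%), in 4.78% of tested and in 2.75% of all promoters. The GC box GGGGCGGGG was in 20.3% and in 21.3% of tested-gene promoters. TATAAA was in 6.76% of member promoters, in 6.80% of tested-gene promoters and in 13.6% of all, and TTTGAA, the core of an element of cell cycle genes, in 17.6%, 12.4% and 17.9%. No motif searched is contained in another.

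NRF1 and GABP are known activators of nuclear genes for mitochondria, and messages of NRF1 and of 1 subunit of GABP were lower in old. Nrf1 had 348.9, 348.8 and 332.8 normalized counts in old replicates 1, 2 and 3, against 452.7, 479.1 and 499.4 in young replicates 1, 2 and 3. The old libraries were close together and all below the young ones, with a log2 fold change of -0.47 and a standard error of 0.08 (limma adjusted p = 0.001). Gabpb1, a subunit of GABP, had 170.9, 157.3 and 130.8 in old replicates 1, 2 and 3, against 193.1, 237.8 and 190.1 in young replicates 1, 2 and 3, with a log2 fold change of -0.43 and a standard error of 0.13 (limma adjusted p = 0.031). Gabpa, the subunit that binds DNA, had 832.9, 792.4 and 703.6 in old replicates 1, 2 and 3, against 815.8, 911.6 and 970.1 in young replicates 1, 2 and 3. Its groups overlapped, and it did not pass (-0.21, limma adjusted p = 0.100). Of 8 tested regulators of mitochondrial biogenesis Nrf1 and Gabpb1 passed, both lower, with a median of -0.15. That is 25% of these regulators, where 17.6% of all tested genes passed as lower. The 13 member genes with the NRF1-type letters had a median log2 fold change of 0.05 and the other 55 a median of 0.12, and 2 of the 13, Mrpl14 and Mrpl44, passed as higher. The 25 genes with the ETS-type letters had a median of 0.12, against 0.10 for the other 43.

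Other genes of the pathway gave few calls, where 35.5% of all tested genes passed. Of 5 mitoribosomal proteins with other names (Dap3, Ptcd3, Chchd1, Aurkaip1 and Gadd45gip1) 1 passed, with a median of 0.01. Aurkaip1, a small-subunit protein, had 665.6, 643.7 and 510.6 normalized counts in old replicates 1, 2 and 3, against 455.7, 451.0 and 474.1 in young replicates 1, 2 and 3. All old libraries were above all young ones, and the log2 fold change was 0.39 with a standard error of 0.10 (limma adjusted p = 0.017). Of 26 genes for ribosome assembly and RNA modification in mitochondria 2 were higher and 1 was lower, with a median of 0.04. The higher ones were Rbfa, a factor that binds the maturing small subunit (0.35, limma adjusted p = 0.036), and Mtg2, a GTPase of large-subunit assembly (0.32, limma adjusted p = 0.039). The lower one was Rcc1l, an assembly factor (-0.48, limma adjusted p = 0.009). Exons of other annotated genes overlap those of Rbfa and of Rcc1l on the opposite strand.

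Among 15 translation factors of mitochondria 0 passed in limma, where 35.5% of all tested genes passed. Of the 15, 3 had an unadjusted p under 0.05, where 5345 of the 11795 tested genes did, and the median was 0.07. Among 10 genes of mitochondrial transcription and DNA maintenance 1 passed, and the median was -0.09. The gene that passed was Polg, the catalytic subunit of the mitochondrial DNA polymerase (-0.36, limma adjusted p = 0.009). Exons of Fanci overlap those of Polg on the opposite strand, so some reads may belong to either gene. The cytosolic ribosomal protein genes had 1 call among 45 tested large-subunit genes, Rpl13a (-0.47, limma adjusted p = 0.003), and 0 among 32 small-subunit genes, where 1 had an unadjusted p under 0.05. Their medians were 0.04 and 0.01, and ran from -0.04 to 0.15 and from -0.08 to 0.15 when 1 library was left out. Without old replicate 3 several passed as higher, among them Rpl31 (0.44, limma adjusted p = 0.004) and Rps25 (0.34, limma adjusted p = 0.004). Rpl13a stayed lower there (-0.41, limma adjusted p = 0.003).

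Most measured messages that the mitochondrial ribosome translates were lower in old. Of 7 measured messages of the mitochondrial genome 5 passed, all lower in old, where 17.6% of all tested genes passed as lower. The median log2 fold change of the 7 was -0.65, 2 did not pass, and the highest estimate was -0.07. Summed over the 7, normalized counts were 45974, 46212 and 41104 in old replicates 1, 2 and 3. The young replicates 1, 2 and 3 had sums of 48009, 52060 and 55370. The other 6 messages of that genome were not analysed here. mt-Nd5, a subunit of respiratory complex I, had 1267, 1407 and 1368 normalized counts in old replicates 1, 2 and 3, against 2452, 2524 and 2242 in young replicates 1, 2 and 3. The groups were far apart, and the log2 fold change was -0.84 with a standard error of 0.07 (limma adjusted p = 2.5e-05). mt-Nd4 and mt-Nd2, of the same complex, had log2 fold changes of -0.65 and -0.50 (limma adjusted p = 1.6e-04 and 2.1e-04). The mitochondrial ribosomal RNAs, mt-Rnr1 and mt-Rnr2, had log2 fold changes of 0.04 and -0.14 with intervals from -0.26 to 0.34 and -0.85 to 0.58, and neither passed. No test set the messages against the Mrp genes.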

How the data were processed

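Messenger RNA of 6 macrophage libraries, 3 old and 3 young, had been prepared with the TruSeq protocol, per the labels. The deposited values are signal, counts per Ensembl gene scaled by the authors with 1 size factor for each library. DESeq2 and mm10 are named in the submitters' processing notes. Not given in the sources used here are the aligner, the read counter, the annotation and the strand setting. Every value was a whole multiple of 1 step per library (100% within 0.01 reads), so whole reads were recovered for the count tests tried as alternatives.

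Symbols, positions and overlaps come from GENCODE release M21 (GRCm38, the assembly behind mm10), and 56 of 19973 identifiers had no symbol. No replicate pair agreed within sampling noise (chi-square per gene, at least 50 reads per pair), so none was taken as 1 library deposited a second time. This check does not show that libraries come from separate mice. limma 3.58.1 in R 4.3.3, with a variance trend, was fitted to log2(normalized count + 1) of all 11795 genes with a mean of at least 10. Fold changes are old minus young and understate those of low genes. P-values were adjusted by Benjamini-Hochberg over all tested genes, and the script was tested on simulated data. The 19 alternatives included edgeR 4.0.16 and DESeq2 1.42.0 on the reads, other scalings, filters and pseudocounts, removal of length and GC trends (splines with 4 degrees of freedom), the replicate number as a block, and each library left out.

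The members, lists and alternatives were chosen with earlier results of these data known, and the 2 lists of mitochondrially encoded RNAs were added after the files were seen. The naming rule takes members past the threshold, the 2 with the highest mean in each subunit, and Mrpl12, Mrpl45, Mrpl58, Mrps30, Mrps18a, Mrps18b, Mrps18c and Mrps36 whatever their values. From each other list it takes up to 3 passing genes.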

Additional observations from a re-analysis of the deposited data

How the results depend on the processing

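Pseudocounts of 0.5 and 5 left the counts of called members as they were (3 higher, 1 lower), and the unfiltered test gave 2 higher and 1 lower. Members called higher in old numbered 14 with quantile normalization (9 Mrpl, 5 Mrps; 18.2% of members against 20.9% of all tested genes), 15 with median centring (10 Mrpl, 5 Mrps; 19.5% against 23.1%), 37 without both libraries numbered 3 (26 Mrpl, 11 Mrps), and 0 in limma without the trend, in DESeq2 and with the replicate block. Of all tested genes 15.7% passed as higher in limma without the trend, 15.8% in DESeq2 and 10.9% with the replicate block. Median centring moved the median of all genes by 0.05 and quantile normalization by 0.03. Members called lower numbered 2 at a mean of at least 50, in edgeR (2 Mrpl each) and without both libraries numbered 3 (0 Mrpl, 2 Mrps), 5 with length and GC trends removed (4 Mrpl, 1 Mrps, beside 1 Mrpl and 1 Mrps higher), and 0 with quantile normalization, median centring, no trend, DESeq2 and the block. Of all tested genes 20.3% passed as lower at a mean of at least 50, 19.2% in edgeR and 17.7% with length and GC trends removed. That share was 17.5% with quantile normalization, 15.2% with median centring, 15.5% without the trend, 16.0% in DESeq2 and 11.5% with the block. Mrps genes called higher were 1 at a mean of at least 50, in edgeR and among protein-coding genes. There 20.1%, 17.5% and 20.4% of all tested genes passed as higher. The medians without both libraries numbered 3 were 0.25 for Mrpl and 0.21 for Mrps genes, and 6960 of all genes passed. Leaving out 1 library at a time gave 0 to 16 members higher (0 to 12 Mrpl, 0 to 4 Mrps) and 0 to 2 lower (0 to 1 Mrpl, 0 to 2 Mrps). By library, the calls were 0 without old replicate 1, 1 without old replicate 2, 18 without old replicate 3, 1 without young replicate 1, 1 without young replicate 2 and 8 without young replicate 3. All genes called ranged from 2940 to 5660.

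Same-numbered libraries did not deviate from their groups in the same direction: their deviations correlated at -0.38, -0.36 and -0.68. Whether they were collected or handled together cannot be told from these correlations. With the replicate block 2643 genes passed and 0 members.

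Single genes near 0 changed sign: Mrpl18 (0.0132 with median centring, 0.10 without both libraries numbered 3, -0.10 to 0.0514 leaving out 1 library), Mrpl12 (-0.23 to 0.0229 leaving out 1), Mrpl45 (0.0314 without both), Mrps30 (0.16 without both, -0.18 to 0.0733 leaving out 1), Mrps18a (-0.0254 in edgeR, -0.0076 in DESeq2, -0.10 with trends removed, -0.0372 to 0.0787 leaving out 1) and Mrps18b (-0.0207 with trends removed). The causes were not tested. Depth limits the low members: Mrps36 had as few as 16 reads in a library. The setting with protein-coding genes alone gives no value for the mitochondrial ribosomal RNAs.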
